A study of Mus musculus with 12 samples.

Results

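The cells described here are mouse neural precursors at step 4 of a differentiation protocol, enriched for PSA-NCAM, and set against the mouse embryonic stem cells (mESC) from which they were grown. They were chosen by their labels: the 3 arrays labelled as step 4 enriched, of 12 arrays in the series. On each array RNA of the enriched cells was labelled with Cy5 and RNA of undifferentiated mESC with Cy3, so every value below is a log2 ratio of precursor to mESC, and 0 means equal signal. The cells came from a C57BL/6 mESC line that carries eGFP under an actin promoter, and in culture the line was kept on fibroblast feeders with serum and LIF. Embryoid bodies were grown for 4 days, neural cells were selected for 6 days in ITSFn medium, and at step 4 they grew for another 5 days in medium that held bFGF (10 ng/ml). The enriched samples had then been bound to magnetic beads through PSA-NCAM, after dead cells were removed, and the step 4 control samples were unsorted cells of the same step. Step 5 enriched cells, used here only to show where the step 4 values lead, had then spent 7 days in medium with ascorbic acid and B27 but no bFGF. The labels do not say whether those cells were sorted before or after these 7 days, or whether feeders were removed before mESC RNA was taken. Each group had 3 biological replicates of the 1 line, and replicates 1, 2 and 3 lay on slides 1, 2 and 3.

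Embryonic stem cells are held in a dividing, uncommitted state by a small circuit of transcription factors and by LIF. When that circuit is left, neural precursors arise that express neural transcription factors and intermediate filaments, depend on FGF and Notch to keep dividing, and give rise first to neurons and later to glia. PSA-NCAM, the neural cell adhesion molecule with long chains of polysialic acid, sits on migrating precursors and young neurons and lowers adhesion between cells.

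Of the 21374 genes tested, 16284 with a symbol, limma called 14833 different from mESC (69.4%), 7741 higher (36.2%) and 7092 lower (33.2%). At least 2-fold differences were called for 3605 genes that were higher (16.9%) and 2665 that were lower (12.5%). At least 8-fold differences were called for 478 and 271 genes. With so many genes called, a call by itself says little about a gene. The counts of each gene list below are to be read against these shares. The lists were chosen with earlier results of these data known, so list counts beside such shares are descriptions and not tests. The balance depends on the scaling: with each array centred on its median and no loess step, the median of all tested genes was 0.42 instead of 0.02, and 11323 genes were higher and 3692 lower. With all arrays free of dye swaps, a dye effect on a gene and the difference between the cells cannot be told apart, and the spread of the mESC RNA itself is not part of the test. In samples of many cells, fewer cells of a type and less RNA per cell cannot be told apart either. Between enriched arrays the ratios correlated across the tested genes, which are not independent replicates, at 0.92 for replicates 1 and 2, 0.90 for 1 and 3 and 0.964 for 2 and 3.

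**Figure D1:**
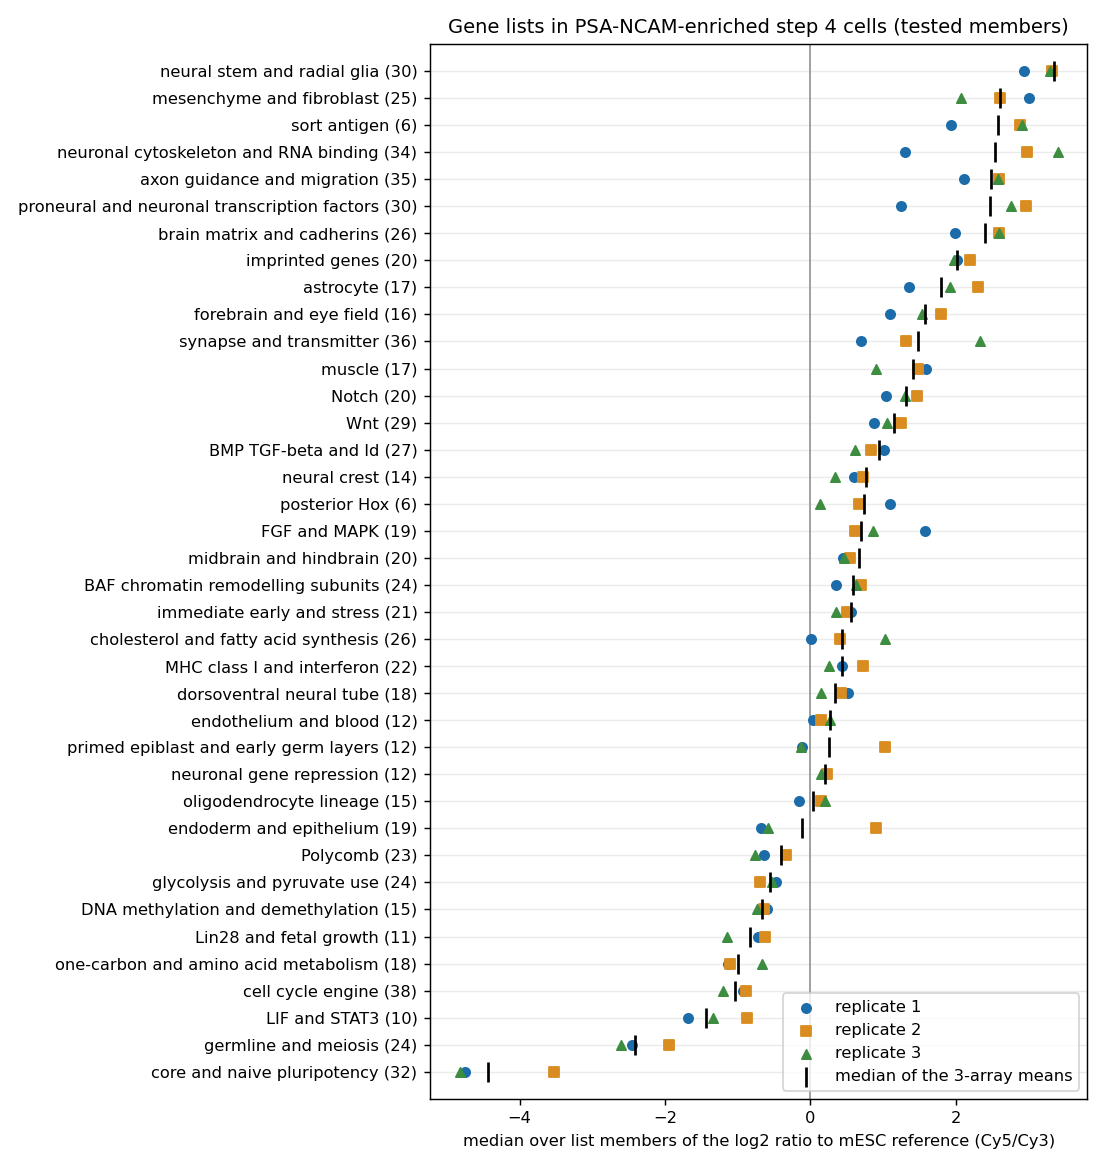
Median log2 ratio to mESC over the tested members of 38 gene lists, 1 list per row with its number of tested genes, in each of the 3 step 4 enriched arrays (coloured points); black bars are the medians of the 3-array means. Pluripotency genes lie lowest, at -4.44, and neural stem and radial glia genes highest, at 3.35; replicate 1 lies apart from replicates 2 and 3 for the neuronal lists and replicate 2 for pluripotency and endoderm.

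The pluripotency programme was far below its mESC level. All 32 genes of the list of core and naive pluripotency were called lower, with a median of -4.44, against 33.2% of all genes tested. For Pou5f1, which encodes the factor Oct4, the ratios in replicates 1, 2 and 3 were -4.89, -3.5 and -4.94. Their mean was -4.45, a 21.8-fold fall (n = 3, limma SE 0.34, adjusted p = 1.2e-06). The SEs given here and below are those of limma's fit shared by all groups, not of the 3 enriched arrays alone. For Pou5f1 the SD over these 3 arrays was 0.82. Nanog, a homeobox factor of the same circuit, stood at -6.26, -4.01 and -6.42 and was 47.4-fold lower (mean -5.57, SE 0.54, adjusted p = 6.14e-06). Both genes were low on all 3 arrays, and both were least reduced in replicate 2. The same was true of Zfp42, a marker of naive stem cells (-6.09, -4.14 and -6.06), and of Tdh, a threonine dehydrogenase on which mouse stem cells depend (-5.64, -3.8 and -5.85). Esrrb (-3.07, -2.7 and -2.87) and Klf4 (-2.81, -2.43 and -3.82) were 7.37-fold and 8.12-fold lower. Over the list, the medians of replicates 1, 2 and 3 were -4.75, -3.52 and -4.82, and replicate 2 was the highest array for 27 of the 32 genes.

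These stem cell genes were much higher in the unsorted cells of the same step, where their median was -1. In the difference between enriched and control cells, for which the mESC reference cancels and in which 32.7% of all genes were called, 30 of the 32 genes were lower in enriched cells, against 17% of all genes, and 28 to 30 were lower when any 1 of these 6 arrays was left out. The exceptions were Lefty1 and Lefty2, inhibitors of Nodal signalling, which stood at -4.75 and -5.02 in enriched cells and already at -4.34 and -4.42 in control cells. With arrays scaled alike 21 of the 32 genes were lower than in control cells. In limma's test against a 2-fold change 14 were. Pou5f1 was at -0.62, -0.71 and -0.66 in the control arrays, so the control and enriched groups did not overlap. At step 5 the list's median in enriched cells was -3.98.

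Genes of the primed epiblast, the state through which stem cells pass on leaving the naive one, did not move as a group. Of 12 tested members 2 were called higher, 3 lower and 7 not called, with a median of 0.26 that turned to -0.22 without replicate 2. Otx2, which specifies the anterior neural plate, was the clearest rise, at 3.31, 3.29 and 2.95 (mean 3.18, SE 0.18, adjusted p = 1.89e-07). Fgf5, the classical marker of the epiblast, was at 0.25, 0.46 and -0.1 (adjusted p = 0.287), with the mESC signal not well above background. The mesoderm gene T, Mixl1 and Mesp1 did not reach a signal well above background on all 3 arrays in either channel and were not tested.

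Genes of neural stem cells and radial glia rose. Of 30 tested members 28 were called higher and 2 lower, and the median was 3.35 (2.94, 3.33 and 3.3 on the 3 arrays). Fabp7, the fatty acid binding protein of radial glia, stood at 6.34, 7.3 and 7.19, a 123-fold rise (SE 0.24, adjusted p = 1.27e-08). Sox1, the earliest transcription factor restricted to the neural lineage, was 12.3-fold higher (3.39, 3.65 and 3.8), and Nes, which encodes the intermediate filament nestin, was 8.5-fold higher (3.4, 2.81 and 3.05). All 3 of these genes were high on every array, with less than 1 log2 unit between the arrays.

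The SoxB1 genes, which are close relatives, went different ways. Sox1 rose as described, and Sox3 rose to 4.38 (4.33, 4.71 and 4.1). Sox2, which stem cells and neural precursors both use, was lower than in mESC on every array, at -1.49, -1.35 and -1.31 (2.61-fold lower, SE 0.19, adjusted p = 7.91e-05). Its value in step 4 control cells was -1.47 and in step 5 enriched cells -1.59. Sox9, a factor of neural stem cells and later of glia, was at least 24.6-fold higher (adjusted p = 9.88e-06), since its mESC signal was not well above background. Such a lower bound sets the mean precursor signal against, on each array, the higher of the lowest signal well above background and the probe's own. Where the probe's own signal was the higher, as for Sox9, the bound equals the mean fold. It allows for a dim mESC signal but not for the spread between arrays, and single arrays can lie below it. Genes given with such a bound, here and below, passed the filter only through the channel in which they were high. Their direction follows from that, so their adjusted p and their place in the list counts are no separate support. Pax6, an eye and forebrain factor, rose only 2.22-fold (0.82, 1.41 and 1.22). The other member called lower was Msi1, at -0.28, but it was at 0.36 with median centring and at 0.13 as the mean of its probes, so no direction is given for it.

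**Figure D2:**
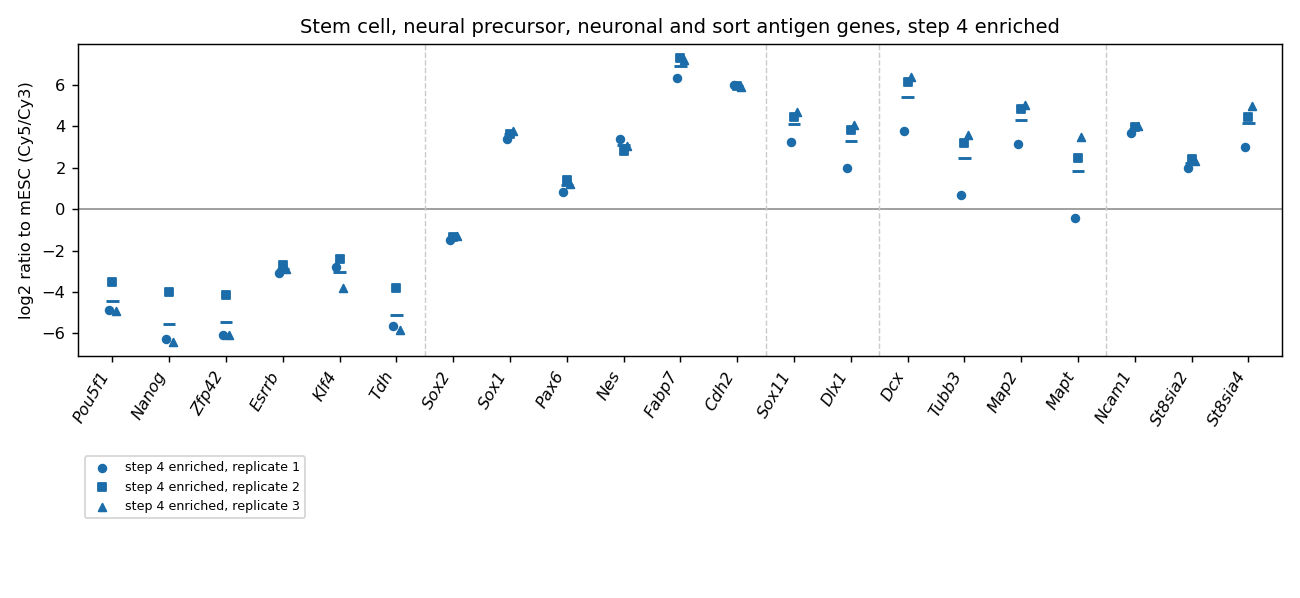
Log2 ratio to mESC of 21 genes in the 3 step 4 enriched arrays (circle, square and triangle for replicates 1, 2 and 3; bars are means). From left to right the dashed lines separate stem cell genes, precursor genes, neurogenic factors, neuronal genes and the sort antigen with its sialyltransferases. Sox2 lies below 0 beside Sox1 and Fabp7 above it, and the circles of replicate 1 lie lowest for the neurogenic and neuronal genes.

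Factors that drive neurogenesis were higher as well. In the list of proneural and neuronal transcription factors 27 of 30 tested genes were called higher and 0 lower (1 lower without replicate 1 or 2), with a median of 2.47. Sox11, active in young neurons, was 17.6-fold higher (3.25, 4.44 and 4.71). Neurog2, a proneural factor of excitatory lineages, was at least 3.03-fold higher (adjusted p = 1.47e-05), and Dlx1, which specifies GABAergic interneurons, at least 9.99-fold (adjusted p = 4.43e-05). On the 3 arrays Neurog2 was at 0.98, 2.09 and 1.73, and Dlx1 at 2.01, 3.85 and 4.09. Sox4 and Dlx2 stood furthest above mESC in this list, at 4.74 and 4.45, with the mESC signal of Dlx2 well above background on 2 of 3 arrays. Neurod1 was not called, at -0.1, -0.31 and -0.5 (adjusted p = 0.0563), although with the replicate number as a block (adjusted p = 0.0136) or without replicate 1 (-0.4, adjusted p = 0.0439) it was called lower.

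The structural genes of neurons followed. Among 34 genes of the neuronal cytoskeleton and RNA binding proteins 28 were called higher, 2 lower and 4 not called, with a median of 2.54. Without replicate 2 or without replicate 3 the number called higher was 23, and without replicate 1 it was 29. Dcx, which encodes the microtubule protein doublecortin of migrating neurons, stood at 3.77, 6.17 and 6.38 (mean 5.44, SE 0.58, adjusted p = 1.25e-05), with the mESC signal of this probe not well above background. Map2, a dendritic microtubule protein, was 20.2-fold higher (3.13, 4.82 and 5.05). Tubb3, the neuronal beta tubulin, was at 0.67, 3.21 and 3.58 (5.6-fold, SE 0.67, adjusted p = 0.0065), and its call ended without replicate 2 (adjusted p = 0.0504) or without replicate 3 (adjusted p = 0.0589). Prph, the peripheral neuron filament peripherin, and Nefh, the heavy neurofilament of mature axons, were the members that fell, by 2.26 and 1.72 on the log2 scale. In each of these 34 genes replicate 1 was the lowest array.

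Genes of the synapse rose less. Of 36 tested members 26 were called higher, 2 lower (1 without replicate 1 or 2) and 8 not called, with a median of 1.48. Syt1, a calcium sensor of transmitter release, was 26.7-fold higher at 3.95, 4.76 and 5.51, with its mESC signal well above background on 1 of 3 arrays. Snap25, part of the vesicle fusion machinery, was 1.83-fold higher (0.72, 0.91 and 0.98). The transporter that loads GABA into vesicles, Slc32a1, stood at 4.38, and the glutamate transporter gene Slc17a6 was at least 5.16-fold higher in the mean (adjusted p = 0.00081). Slc17a6 was at 0.73, 3.56 and 2.82 on the 3 arrays, so replicate 1 lay far below that bound. Gad1, which makes GABA, was at -0.24, 0.78 and 2.75 (adjusted p = 0.159), on both sides of 0, and was called higher with median centring (1.71). Th, the dopamine enzyme, was at -0.05, 0.65 and 0.91 (adjusted p = 0.0253), and its call ended without replicate 2 (0.43, adjusted p = 0.123), without replicate 3 (0.3, adjusted p = 0.208) and with the scanner's own log ratio (adjusted p = 0.0736).

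The antigen used for the sort and the enzymes that build it were all above mESC. All 6 genes of that list were called higher, with a median of 2.58. Ncam1, the carrier of polysialic acid, stood at 3.69, 3.98 and 4.02, a 14.9-fold rise (SE 0.3, adjusted p = 1.41e-06) with little spread between arrays. The polysialyltransferases St8sia2 (1.98, 2.45 and 2.33) and St8sia4 (3.02, 4.47 and 4.97) were 4.76-fold and 17.8-fold higher, and the mESC signal of St8sia4 was well above background on 1 of 3 arrays. The cells had been selected for the product of these genes, but the stem cells had not, so the sort and the differentiation cannot be told apart in these ratios.

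Genes that mark position along the body axis differed by region. Of 16 tested genes of the forebrain and eye field 13 were called higher and 2 lower, with a median of 1.58. Nkx2-1, which marks the ventral forebrain, was at least 8.12-fold higher (adjusted p = 2.14e-06). Hesx1 and Rax, anterior genes of early embryos, were the 2 called lower, Hesx1 at -1.9, with its precursor signal well above background on 1 of 3 arrays, and Rax by at least 2.42-fold (adjusted p = 2.81e-07). Midbrain and hindbrain genes were mixed, with 11 of 20 called higher and 4 lower (2 without replicate 2 or 3) and a median of 0.67, which was -0.06 among genes with both channels above background. Irx1 stood at 3.63 and Hoxa2 was at least 7.19-fold higher (adjusted p = 2.52e-06), while En2 (-1.3, 0.2 and 0.32) and Pax2 (0.09, 0.06 and -0.11) were not called. Of 24 more posterior Hox genes only 6 were tested, because the other 18 did not reach a signal well above background on all 3 arrays in either channel. Hoxb4, among those 6, was at 2.26, 1.23 and 0.16 (adjusted p = 0.00495), highest in replicate 1 and near 0 in replicate 3.

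Along the dorsoventral axis, 8 of 18 tested genes were called higher, 2 lower and 8 not called, with a median of 0.34. Dbx1, a factor of the intermediate neural tube, stood at 4.48, with its mESC signal well above background on 2 of 3 arrays, and Nkx6-1 (1.64, 1.97 and 1.47) and Pax3 (0.9, 2.45 and 2.44), which mark the ventral and dorsal tube, both rose. Gli1, a direct target of hedgehog signalling, was 2.9-fold lower than in mESC (-1.71, -1.42 and -1.48). Olig2 was not called, at -0.18, -0.47 and 0.2 (adjusted p = 0.592).

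Genes known as markers of lineages outside the nervous system were measured as well. Of 25 tested mesenchymal and fibroblast genes 22 were called higher, 1 lower (2 without replicate 1) and 2 not called, and the median was 2.61. The fibrillar collagen gene Col1a1 stood at 7.04, 5.32 and 4.66, a 51.1-fold rise (SE 0.43, adjusted p = 1.15e-06), and Col3a1 at 5.41, 5.88 and 5.27 (45.9-fold). Lum, a proteoglycan of connective tissue, was at least 16.3-fold higher in the mean (2.75, 4.29 and 5.05, adjusted p = 0.000808). Fn1, which encodes fibronectin, was at 0.59, -0.24 and -1.46 and not called (adjusted p = 0.301), but without replicate 1 it was called lower, at -0.85 (adjusted p = 0.0245). The median of this list was 1.75 in control cells and 3.77 in step 5 enriched cells. Whether these genes come from other cells among the sorted ones or from the precursors was not tested.

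Genes of smooth and striated muscle were also higher in 11 of 17 cases, lower in 3 (5 without replicate 1) and not called in 3, with a median of 1.41. Acta2 (3.45, 3.07 and 2.55) and Tagln (4.68, 2.32 and 1.92), both of smooth muscle, rose 8.14-fold and 7.87-fold, while Myh6, a cardiac myosin, fell by 2.21 and Des by 1.4 on the log2 scale. Genes of endothelium and blood gave 5 higher and 5 lower of 12 tested, but 3 higher without replicate 1 or 2. Among them Cdh5, the endothelial cadherin, was at least 5.28-fold higher (adjusted p = 0.00123), and Pecam1, which mouse stem cells express too, fell by 1.68 on the log2 scale. The blood markers Ptprc and Aif1 and the liver and yolk sac gene Afp did not reach a signal well above background on all 3 arrays in either channel.

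Epithelial and endodermal genes split. Of 19 tested 4 were called higher, 9 lower and 6 not called, and the median of -0.12 turned to 0.09 with median centring, 0.16 without replicate 1 and 0.11 without replicate 3. Without replicate 2 the median was -0.63 and 2 genes were called higher. Among genes with both channels above background the median was -1.31, with 3 called higher and 9 lower. With the scanner's own log ratio it was -0.9. Epcam (-4.18, -3.02 and -4.27) and Cdh1, which encodes E-cadherin (-4.13, -2.44 and -4.42), fell 14.2-fold and 12.7-fold. The keratin genes Krt8, Krt18 and Krt19 rose, Krt18 to 2.08, 4.05 and 2.55 (adjusted p = 0.0112), with no call for Krt18 without replicate 2 (adjusted p = 0.0844). In replicate 2 alone the endoderm factors Sox17 (-0.09, 2.28 and -0.17) and Foxa2 (0.99, 2.94 and 0.88) stood above 2, and by limma neither was called (adjusted p = 0.402 and 0.0809). The mESC signal of Foxa2 was not well above background. With the replicate number as a block 9 of the list's genes were called higher. Replicate 2 was the highest array for 18 of the 19 genes.

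Genes of oligodendrocytes and astrocytes differed from each other. Of 15 tested genes of the oligodendrocyte lineage 2 were called higher, 3 lower and 10 not called, with a median of 0.03. Pdgfra and Cspg4, receptors of early progenitors, rose by at least 3.37-fold (adjusted p = 0.00316) and by 2.18-fold. On the 3 arrays Pdgfra was at 0.65, 2.8 and 1.81. Mbp, the myelin basic protein gene, was at -0.57, 1.2 and 1.09 (adjusted p = 0.223), and was called higher with the replicate number as a block (adjusted p = 0.0153), without replicate 1 (1.15) and with median centring (1.22). Among 17 astrocyte genes 13 were called higher, but these were led by genes that radial glia express too, such as Sparcl1 (6.72) and Nfib (4.86). Gfap, the filament of mature astrocytes, was not called, at -0.29, 1.37 and 0.93 (adjusted p = 0.442), nor was the water channel gene Aqp4, at 0.33, 1.07 and 0.92 (adjusted p = 0.279). With the scanner's own log ratio Aqp4 was at 2.28 (adjusted p = 0.0133). The SE of Aqp4 was 0.61 although its SD over these 3 arrays was 0.39. The shared fit takes in the spread of all groups. Among them are the step 5 enriched arrays, which ran from 4.29 to 6.7, and the step 5 control arrays, whose values are not given here. With only the 3 step 4 enriched arrays fitted, 5 oligodendrocyte genes were called higher and 4 lower, and 14 astrocyte genes higher. Apoe fell by 2.81 on the log2 scale. Of neural crest genes 8 of 14 were higher, Tfap2b by at least 8.03-fold (adjusted p = 8.94e-05), while Foxd3, which stem cells use as well, fell by 1.81 on the log2 scale, with its precursor signal well above background on 1 of 3 arrays. Sox10 was not called (0.42, adjusted p = 0.113), but with median centring it was (0.86).

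Germline genes were lower in the enriched cells than in mESC and than in the unsorted cells. Of 24 tested genes of the germline and meiosis 21 were called lower than in mESC, 0 higher and 3 not called, with a median of -2.41 (-2.46, -1.94 and -2.6). In step 4 control cells the median of the same genes was 0.75, although some were below mESC there too, such as Rpl39l (-3.64) and Rpl10l (-1.43). In the difference between enriched and control cells 22 of the 24 were lower in enriched cells, against 17% of all genes. When any 1 of these 6 arrays was left out, 20 to 22 were lower. As the list was chosen with earlier results of these data known, this count is a description and not a test. Ddx4, the RNA helicase of germ cells, was at -2.99, -1.3 and -3.03 (SE 0.42, adjusted p = 0.000373), and Sycp3, a protein of the meiotic chromosome axis, at -3.42, -2.38 and -3.3 (SE 0.37, adjusted p = 3.15e-05). Rpl39l, a ribosomal protein gene of testis, fell furthest, 72-fold. Across all genes 157 were called in both step 4 groups with opposite signs and differed between them, and 123 of these were lower in the enriched cells. The list's own median was -1.73 in step 5 enriched cells.

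The promoters of these genes are shown because the genes moved together and because a group of germline promoters is known to carry a short palindrome, CACGTG, which MYC and MAX family proteins bind. RefSeq windows on GRCm38.p6, 250 bases before to 50 after the start of the gene, were found for 21 of the 24 genes. CACGTG, searched in both strands, stood in 10 of the 21 (47.6%) and in 8 of the 18 with a window that were called lower. It stood in 9.73% of the 12698 tested genes with a symbol and a window and in 7.24% of the windows of all genes. Taf7l and Slc25a31, which were not called, carried it too. Where a gene had more than 1 window, only the first listed was used. This is a description of letters in a window of sequence, with no test and no statement on binding. All 4 genes printed below carry the palindrome, so they do not stand for the list. The 100 bases before the start are printed for 4 of the genes, 5′ to 3′ on the strand of the gene, with the palindrome in capitals:
Ddx4, chr13:112652311-112652410, minus strand: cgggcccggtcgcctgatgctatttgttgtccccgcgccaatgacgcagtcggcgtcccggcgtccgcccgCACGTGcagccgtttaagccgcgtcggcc
Sycp1, chr3:102936101-102936200, minus strand: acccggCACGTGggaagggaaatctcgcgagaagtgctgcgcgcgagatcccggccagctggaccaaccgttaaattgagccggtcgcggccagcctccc
Sycp3, chr10:88459487-88459586, plus strand: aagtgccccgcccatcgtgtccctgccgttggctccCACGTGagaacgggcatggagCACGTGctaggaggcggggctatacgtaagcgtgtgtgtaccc
Hormad1, chr3:95559577-95559676, plus strand: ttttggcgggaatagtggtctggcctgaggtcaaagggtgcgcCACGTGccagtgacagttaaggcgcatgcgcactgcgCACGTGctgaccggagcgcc

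In Sycp3 and Hormad1 the palindrome stands at 2 places, starting at positions -64 and -43 in Sycp3 and -57 and -20 in Hormad1, counted from the start of the gene. Relative to mESC these 4 genes were at -2.44, -1.12, -3.03 and -2.74 in enriched cells, and at 2.26, 2.94, 1.06 and 1.63 in control cells. The precursor signals of Sycp1 and Hormad1 were well above background on 1 of 3 arrays. Other members with comparable falls had no such letters in their window, among them Smc1b (-4.05), Stra8 (-3.86) and Dmc1 (-2.72).

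**Figure D3:**
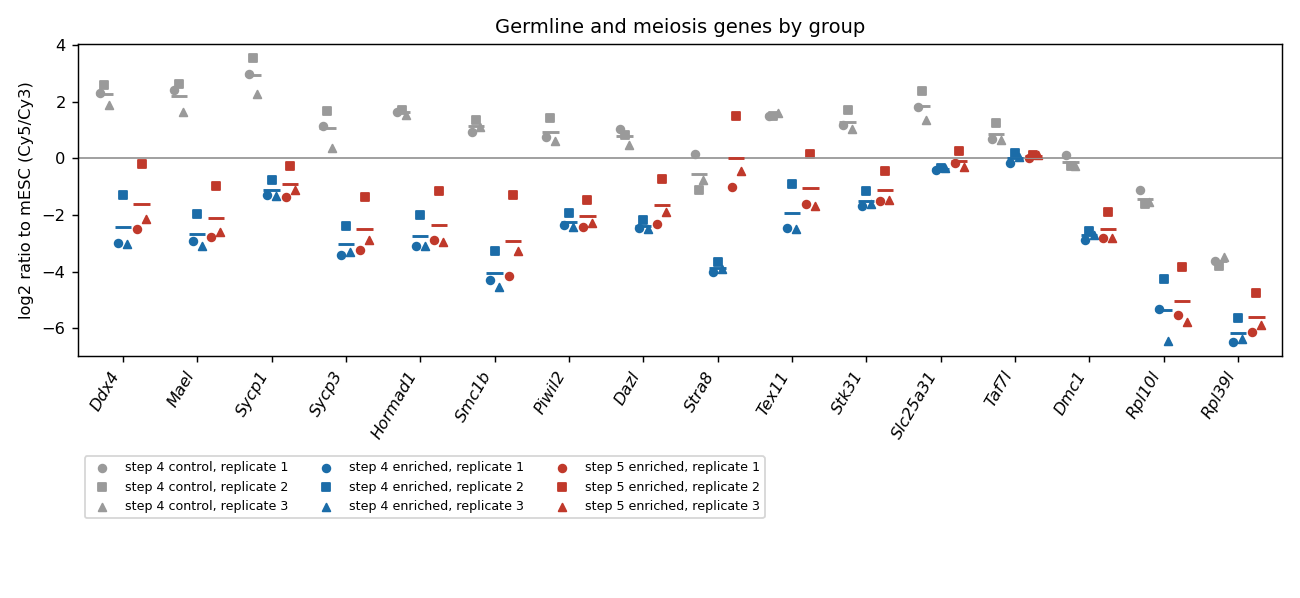
Log2 ratio to mESC of 16 germline and meiosis genes in step 4 control (grey), step 4 enriched (blue) and step 5 enriched cells (red), with circle, square and triangle for replicates 1, 2 and 3 and bars for the means. For the genes from Ddx4 to Dazl the control arrays lie above 0 and the enriched arrays of step 4 below it, without overlap.

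Genes of chromatin went both ways within the same families. Among 15 genes of DNA methylation and demethylation 4 were higher and 8 lower. The de novo methyltransferase genes parted, with Dnmt3a at 3.27, 3.34 and 3.55 (10.4-fold higher, SE 0.21, adjusted p = 3e-07) and Dnmt3b at -3.69, -1.88 and -4.05 (9.24-fold lower, SE 0.41, adjusted p = 4.9e-05). Dnmt3l, their cofactor in germ and stem cells, fell 26.3-fold (-5.16, -3.56 and -5.43), and Tet1, which oxidises methylcytosine, 6.53-fold (-3.1, -2.49 and -2.53).

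In the BAF remodelling complex, whose subunits are exchanged as neurons form, 15 of 24 tested genes were higher, 5 lower and 4 not called, and 2 were lower without replicate 2 and 3 without replicate 1 or 3. Smarca2, an alternative ATPase, stood at 4.2, and Smarcd3 was 6.57-fold higher (2.18, 2.87 and 3.1). Actl6a, the subunit of dividing progenitors, fell 2.57-fold (-1.41, -1.26 and -1.41) and its neuronal counterpart Actl6b rose 2.19-fold (0.41, 1.49 and 1.49), with its mESC signal well above background on 1 of 3 arrays. Of the Polycomb genes 6 were higher and 13 lower of 23, with a median of -0.41 that was 0.04 with median centring. Suz12, a core subunit of PRC2, stood at -2.1, and its partner Mtf2 (-2.5, -1.94 and -2.04) and Phc1 of PRC1 (-2.33, -1.98 and -2.19) fell 4.48-fold and 4.5-fold. The chromobox gene Cbx7, the form of stem cells, fell 2.41-fold, and Bmi1, which neural stem cells need for self-renewal, rose to 2.83.

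Genes of neuronal gene repression and splicing went both ways, with 6 of 12 tested called higher, 5 lower and 1 not called and a median of 0.2. Rest, which silences neuronal genes outside neurons, fell 5.27-fold, at -1.92, -2.26 and -3.01 (SE 0.18, adjusted p = 1.26e-06). The deacetylase gene Hdac9 rose by 1.73 on the log2 scale, at 1.35, 1.91 and 1.92. Srrm4, a splicing factor of neural exons, stood at 3.65, with its mESC signal well above background on 2 of 3 arrays. Ptbp1, a splicing repressor of precursors, fell by 0.9 on the log2 scale and its neuronal relative Ptbp2 rose by 1.38 on the same scale. For Ptbp1 the call ended with median centring (-0.38, adjusted p = 0.0612).

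Imprinted genes, which are expressed from 1 parental copy and often regulate fetal growth, were mostly higher. Of 20 tested 15 were called higher, 1 lower and 4 not called, with a median of 2.02 and 2.01, 2.2 and 1.98 on the 3 arrays. Plagl1, a zinc finger factor of an imprinted network, stood at 6.4, 5.09 and 4.47 (mean 5.32, adjusted p = 1.59e-06), and Dlk1, a Notch-like ligand, at 4.79, 5.12 and 4.24 (26.3-fold). H19, a noncoding RNA, was 6.85-fold higher (2.7, 3.21 and 2.42). Igf2, its neighbour on the chromosome, was at 0.41, 0.71 and 0.32 (adjusted p = 0.0313), with its mESC signal well above background on 2 of 3 arrays, and leaving out any of the 3 arrays ended that call (0.37 to 0.56, with adjusted p = 0.0515 to 0.174). Phlda2 was the 1 gene called lower, at -3.1, -2.9 and -3.06. The list's median in control cells was 1.59.

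Among genes of fetal growth control 5 of 11 were higher and 6 lower, but 3 higher without replicate 2 or 3. Lin28a, which blocks let-7 microRNAs in stem cells, fell 6.28-fold (-3.06, -1.78 and -3.11), and its relative Lin28b was at -0.04, 1.06 and 0.67 (adjusted p = 0.0418), and its call ended with the replicate number as a block (adjusted p = 0.0534), without replicate 2 (0.32) or 3 (0.51), with the scanner's own log ratio (0.46) and with arrays scaled alike (0.47). Hmga2, a chromatin protein of young neural stem cells, rose 6.29-fold, at 4.09, 2.46 and 1.41 (SE 0.45, adjusted p = 0.000355). Mycn fell by 2.06 on the log2 scale.

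Among signalling genes the LIF list was the one mostly lower, and the FGF, Notch, Wnt and BMP lists were mostly higher. Of 10 LIF and STAT3 genes 7 were lower and 2 higher, with a median of -1.44, among them the receptor gene Lifr (-1.65, -0.87 and -1.79) and Socs3, a feedback inhibitor (-1.73, -1.78 and -1.91). Of 19 genes of the FGF and MAPK pathway 10 were higher and 3 lower. The receptor gene Fgfr1 was 5.36-fold higher (2.9, 2.15 and 2.22), the carrier gene Fgfbp3 39.8-fold (3.9, 5.67 and 6.38), and Fgf15, a ligand of the forebrain, 10.6-fold (3.32, 2.89 and 4.01). The stem cell ligand gene Fgf4, counted in the pluripotency list, fell 69.5-fold (-6.81, -4.22 and -7.33). Feedback genes differed between arrays: Dusp6 stood at 3.84, 1.65 and 1.52, and Spry4 at 1.62, -0.69 and -0.71 (adjusted p = 0.9), so replicate 1 was the high array for both.

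In the Notch pathway 17 of 20 genes were higher and 3 lower, with a median of 1.31. With any 1 enriched array left out, 13 to 16 were higher and 2 to 3 lower. Hes5, the target gene that holds neural stem cells undifferentiated, was 33.4-fold higher (3.79, 5.68 and 5.71, SE 0.65, adjusted p = 4.89e-05), and Hes6, which opposes it, 5.74-fold (2.85, 2.28 and 2.43). The ligand gene Dll1 stood at 2.37, while Rbpj, the DNA-binding partner of Notch, fell by 1.63 on the log2 scale. Of 29 Wnt genes 18 were higher and 5 lower, with Fzd1 at 4.09 and Dkk3 at 3.08 furthest up and Tcf7 furthest down at -2.74. In the BMP and TGF-beta list 17 of 27 were higher and 5 lower (3 without replicate 2 or 3). Tgfb2 stood furthest up at a mean of 4.25 (4.49, 4.16 and 4.12), and the inhibitors of differentiation Id1 (3.48, 3.02 and 2.66), Id3 (1.87, 2.69 and 2.15) and Id4 (2.59, 3.93 and 3.72) all rose, while Smad7, a feedback inhibitor, fell by 2.6 on the log2 scale.

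Cell surface and matrix genes rose broadly. Of 35 tested genes of axon guidance and migration 31 were higher, 1 lower and 3 not called, with a median of 2.49. Nrcam, an adhesion molecule of axons, was 31.8-fold higher (4.44, 5.34 and 5.2, SE 0.24, adjusted p = 6.28e-08), and Cxcr4, the chemokine receptor of migrating neurons, 8.27-fold (2.88, 3.36 and 2.91). Robo2, a receptor for the repellent Slit, was at least 12.4-fold higher (adjusted p = 1.34e-06). Of 26 genes of brain matrix and cadherins 22 were higher, 3 lower and 1 not called. Cdh2, which encodes N-cadherin, was 62.5-fold higher at 6.02, 5.96 and 5.92 (SE 0.32, adjusted p = 1.43e-07), and in the same cells Cdh1 was lower, as given above, and so was Cdh3 (-1.81). Cdh2 varied by only 0.1 log2 between its highest and lowest array, with an SD of 0.05. Its larger SE of 0.32 comes from the fit shared by all groups. The proteoglycan genes Vcan (2.13, 2.57 and 2.51) and Ncan (0.79, 2.89 and 3.49) both rose, Vcan about equally on the 3 arrays and Ncan less in replicate 1.

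The cell cycle list was lower in the main. Of 38 genes 25 were called lower, 9 higher and 4 not called, with a median of -1.04 and -0.93, -0.88 and -1.2 on the 3 arrays. Bub1 and Bub1b, of the spindle checkpoint, stood at -1.92 and -1.77, while Mki67, often used as a mark of dividing cells, was at -0.36, -0.18 and -0.36 (adjusted p = 0.131). The D-type cyclin genes parted: Ccnd2 rose 28.8-fold (5.21, 4.83 and 4.51, SE 0.14, adjusted p = 4.54e-09) and Ccnd1 5.85-fold (3.77, 2.02 and 1.86), while Ccnd3 fell by 0.73 on the log2 scale. Ccne1, which acts later in G1, fell 2.69-fold (-1.1, -1.46 and -1.73). The inhibitor gene Cdkn1c stood at 3.22. Another inhibitor, Cdkn1a, was at 3.12, 1.43 and 0.93 (adjusted p = 0.00519), but without replicate 1 its adjusted p was 0.0546, and as the mean of its probes it was at 0.35 (adjusted p = 0.323).

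Metabolic genes were taken in 3 lists, whose counts stand against 36.2% of all genes called higher and 33.2% called lower. Of 24 genes of glycolysis and pyruvate use 13 were lower, 3 higher (1 without replicate 3) and 8 not called, with a median of -0.55. Pfkp, a phosphofructokinase, was 7.82-fold lower (-3.38, -3.16 and -2.37) and Hk2, a hexokinase, 3.98-fold (-1.87, -2.02 and -2.08), while Aldoc, the aldolase of brain, was 11-fold higher (2.68, 3.65 and 4.04). Of 18 genes of one-carbon and amino acid metabolism 12 were lower and 0 higher. Gldc, which cleaves glycine, fell 3.95-fold (-1.9, -1.76 and -2.29), and Phgdh, the first enzyme of serine synthesis, was not called (-0.19, -0.08 and 0.4, adjusted p = 0.863). Of 26 genes of cholesterol and fatty acid synthesis 13 were higher, 2 lower and 11 not called. Scd2, a desaturase of brain, was 11.9-fold higher (3.08, 3.67 and 3.98), and Hmgcs1 3.66-fold (0.94, 1.86 and 2.81). The lowest array was replicate 1 for 23 of these 26 genes and the highest was replicate 3 for 24, and without replicate 3 the list gave 9 higher and 7 lower. Median centring gave 19 higher and 0 lower.

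Genes of antigen presentation and interferon response gave 9 higher, 6 lower and 7 not called of 22. B2m, the light chain of MHC class I, was 5.47-fold higher (3.21, 2.45 and 1.69), and Ifitm1 and Ifitm3, antiviral membrane proteins that early embryonic cells express, fell 11.3-fold and 4.26-fold. Of 21 immediate early and stress genes 8 were higher and 4 lower. Jun was 7.06-fold higher (3.44, 2.3 and 2.73), and Fos (0.25, 0.13 and -0.47) and Egr1 (1.79, 0.11 and -0.68) were not called (adjusted p = 0.922 and 0.517).

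The largest rises over all genes, among those well above background in both channels on all 3 arrays, included Gpm6b, a membrane proteolipid of neurons and glia, which was 182-fold higher (7.29, 7.5 and 7.72, SE 0.4, adjusted p = 1.19e-07). Fabp7 followed at 123-fold, then Igfbp5, a growth factor binding protein (114-fold), Sparcl1 (6.72 on the log2 scale), and Cpe, Ptn, Cdh2, Prl2c5 and Chgb, from 66.7-fold down to 51.5-fold. Cpe and Chgb belong to the secretory granules of neuroendocrine cells, and Prl2c5 is a prolactin family gene of placenta. By the same rule the genes furthest down were Arl14epl (-6.58, -5.38 and -6.65, or 73.6-fold), Rpl39l, Fgf4, Dppa5a (48.2-fold), Nanog, the ferritin-like genes Fthl17d and Fthl17f, Zfp42, Pigp and Ly6g6e (41.2-fold). Fthl17d and Fthl17f belong to 1 family of similar genes whose probes may share signal.

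Other genes were well above background in the RNA of 1 cell type alone. In 1244 genes a signal well above background was found for the enriched cells on 3 arrays and for mESC on 0, and the reverse held for 406. These genes were selected by the channel in which they were detected, so their direction follows from the selection. The largest lower bounds were those of Lrrn3 (at least 82.4-fold, adjusted p = 5.7e-06), the secretogranin gene Scg2 (at least 35.3-fold, adjusted p = 1.37e-06), the protocadherin gene Pcdh18 (at least 35.1-fold, adjusted p = 1.84e-07) and Gpm6a (at least 32.8-fold, adjusted p = 3.64e-06), and Sox9 was among the next. In the other direction stood Lrriq4 (at least 14-fold lower, adjusted p = 3.01e-09), Siglecf (12-fold, adjusted p = 1.02e-07), Pramel6 (11.6-fold, adjusted p = 2.71e-08) and, with bounds of 9.79-fold and 8.65-fold, Klk1b5 and Cd79b.

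The 3 enriched samples were not alike, and the differences ran along gene lists. For all 34 tested genes of the neuronal cytoskeleton and RNA binding list replicate 1 was the lowest array, and for 31 of 36 synapse genes and 28 of 30 neurogenic transcription factors as well. The medians of these lists in replicates 1, 2 and 3 were 1.3, 2.98 and 3.4 for the cytoskeleton, 0.7, 1.32 and 2.33 for the synapse, and 1.25, 2.96 and 2.76 for the factors. Over all tested genes the median was 0.02 on each of the 3 arrays. How often each array was lowest or highest over all tested genes was not counted, so such counts, here and above, have no share beside them. Genes on an array are not independent either. Mapt, which encodes tau, stood at -0.41, 2.47 and 3.49, so that its call (adjusted p = 0.0185) ended without replicate 2 (adjusted p = 0.107) or replicate 3 (adjusted p = 0.18). Cd200, a membrane glycoprotein of neurons, was at 1.45, 4.25 and 5.31 (mean 3.67, adjusted p = 0.000407).

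Replicate 1 was in turn the highest array for 13 of 17 muscle genes, 15 of 25 mesenchymal genes and 11 of 19 FGF and MAPK genes. Mgp, a matrix protein of cartilage and vessels, was at 4.75, 0.68 and 0.48, with its mESC signal well above background on 2 of 3 arrays, and without replicate 1 it was at 0.58 and not called (adjusted p = 0.254). Ccn2, a matricellular growth factor, had the widest range of all, at 2.62, 1.35 and -2, and was not called (adjusted p = 0.569). Perp, of epithelial cells, stood at 3.22, 1.07 and -0.67, and Krt20, a keratin gene of gut, at 2.6, -0.47 and -0.98. Spink1 (0.21, 4.64 and 1.46) and Pga5 (-1.81, 2.46 and -0.8), of gut epithelium, were high in replicate 2 alone, and Acss1 was low in replicate 1 (-2.53, 0.87 and 1.48). With the replicate number as a block Spink1 was called higher (adjusted p = 0.000298).

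Replicate 2 stood apart by the least reduced pluripotency genes and by the highest endodermal ones, as given above. Of the genes well above background in both channels on all arrays, 258 had a range above 2 between the enriched samples, and in 144 of them replicate 1 was the lowest and in 91 the highest. The image of slide 2 came from a different scanning session and a different release of the Feature Extraction program than those of slides 1 and 3, so sample and slide cannot be told apart for replicate 2. The correlation was lowest between replicates 1 and 3, and the source of the differences between replicates was not tested.

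**Figure D4:**
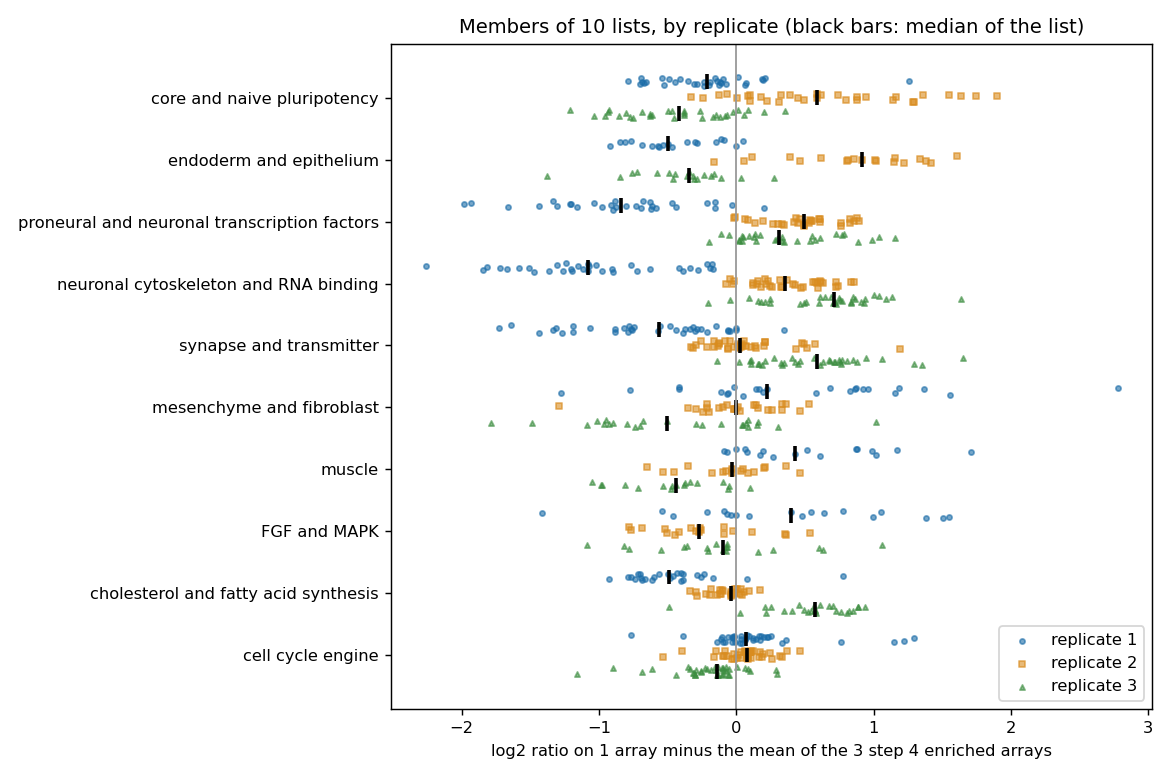
Deviation of each tested member of 10 gene lists from its mean over the 3 step 4 enriched arrays, in log2, with replicate 1 as blue circles, replicate 2 as orange squares and replicate 3 as green triangles; black bars are medians. For the neuronal cytoskeleton the medians are -1.08, 0.36 and 0.72, for pluripotency -0.22, 0.59 and -0.42, and for cholesterol synthesis -0.49, -0.04 and 0.57.

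Between step 4 and step 5 enriched cells limma called 1324 genes different (6.19%), 792 higher at step 5 (3.71%) and 532 lower (2.49%). Genes of glia were among those higher at step 5. Of the 15 oligodendrocyte genes 10 were higher at step 5, where their median was 2.64 against 0.03 at step 4, and 8 to 10 were higher with any 1 of the 6 arrays left out, 6 with arrays scaled alike. Bcas1, of early myelinating cells, was below mESC on the 3 step 4 arrays (-1.73, -1.99 and -1.62) and at 3.78 at step 5, a rise of 5.56 (SE 0.66, adjusted p = 0.00234). Apoe, the lipid carrier of astrocytes, rose by 4.84 (SE 0.39, adjusted p = 0.000471), also from below to above the mESC level. Gfap rose by 5.66 (SE 1.05, adjusted p = 0.0133) and Aqp4 by 4.86 (SE 0.86, adjusted p = 0.0114). Of the 17 astrocyte genes 7 were higher at step 5, but 2 without step 5 replicate 3, 3 without step 4 enriched replicate 2, 4 without replicate 1 of either group and 1 with arrays scaled alike.

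The genes that dropped furthest had been high at step 4. Fgfbp3 went from 5.31 to 1.69, a fall of -3.63 (SE 0.6, adjusted p = 0.0086), Fgf15 from 3.41 to 0.62 (adjusted p = 0.00937) and Hmga2 from 2.65 to -0.17 (adjusted p = 0.0289). Il17rd, a feedback inhibitor of FGF signalling (2.73, 0.92 and 0.75 at step 4), and the chloride channel gene Ano1 (4.45, 4.22 and 4.51) fell by 2.19 and 2.43 on the log2 scale. Mki67 fell by 1.18 (adjusted p = 0.0182), and 20 of the 38 cell cycle genes were lower at step 5, but 8 without step 4 enriched replicate 2, 12 without step 4 enriched replicate 1, 10 without step 5 replicate 1 or 3 and 2 with arrays scaled alike. Ccnd2 went from 4.85 to 4.06 (adjusted p = 0.0447) and so stayed far above mESC. Proneural Neurog2 fell by 1.4 on the log2 scale (adjusted p = 0.0112), and Dcx stood at 5.44 and 5.56 at the 2 steps (adjusted p = 0.956).

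**Figure D5:**
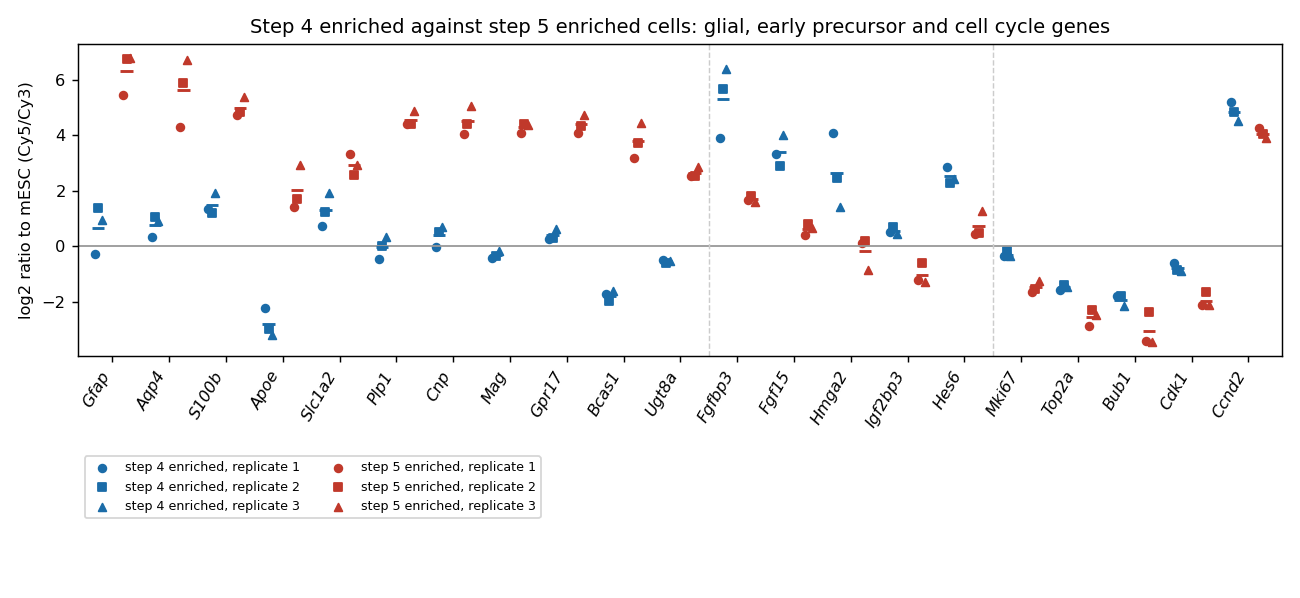
Log2 ratio to mESC of 21 genes in step 4 enriched (blue) and step 5 enriched cells (red), with circle, square and triangle for replicates 1, 2 and 3 and bars for the means; dashed lines separate glial, early precursor and cell cycle genes. Gfap goes from 0.67 to 6.33 and Fgfbp3 from 5.31 to 1.69, while the cell cycle genes shift by less.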

How the data were processed

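RNA of 4 groups of 3 samples was hybridised to 2-colour Agilent arrays with Cy5 for the sample and Cy3 for mESC, 100 ng of RNA per labelling, per the labels' protocols. The deposited scanner files give intensity values per spot, read with Feature Extraction 10.7.3.1 (slides 1 and 3) or 10.5.1.1 (slide 2), per the file headers, and a log10 ratio that the scanner's software had background-subtracted and dye-normalized, per the file headers. The authors' deposited table of log2 ratios equals that ratio to within 0.001 for 99.4 to 99.5% of values; its columns have a median of 0, and its use of the scanner's ratio was found by this match.

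From the intensities, background was corrected by normexp (offset 50), each array was normalized by loess, and no scaling was done between arrays (R 4.3.3, limma 3.58.1). Control spots (1377) and 128 to 298 outlier spots per array were left out, which gave 39429 probes. Of these 9739 had no gene name in RefSeq, a gene was taken as its brightest probe, and genes were kept if well above background in either channel on all 3 arrays. Probes of the enriched samples were above background in 26834, 27688 and 27504 cases, and the number of arrays limits the precision. limma's lmFit and eBayes fitted all 12 arrays with a mean per group, and Benjamini-Hochberg adjustment ran over 21374 genes; a call is an adjusted p under 0.05. On simulated data of that size 82% of genes changed by 1 and 94% of genes changed by 2 on the log2 scale were recovered, with 6.38% false calls. In that simulation only a small part of the genes was changed, and noise was independent, with no slide or dye effect. In the real data 69.4% of genes were called, so these rates do not carry over to the calls given here.

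Same-numbered samples deviated together (r = 0.203, 0.126 and 0.648 for enriched and control cells, 0.343, 0.414 and 0.373 for steps 4 and 5). The replicate numbers are also the slides, so a shared culture and a shared slide cannot be told apart. No label gives a pairing. The main fit, also for the differences between groups, left the replicate number out, and fits with it as a block are given as alternatives. The series text calls replicates biological. Alternatives were the scanner's ratio, no background correction, median centring, scaling between arrays, filters, probe means, blocks, other limma settings and leaving out arrays.

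The gene lists and the members named were chosen with earlier results of these data known. Named genes are the marker genes of each list, the 2 called members furthest up and down in each list, the 10 furthest up and down with both channels above background, the 6 largest lower bounds each way, the 8 with the widest range over arrays, and the 8 furthest up and down between steps. Dll1, Dmc1, Foxa2, Lefty1, Lefty2, Slc32a1, Smc1b, Sox3, Sox17, Stra8, Suz12 and Ccnd3 were named after their values were seen. Some genes that the rule selects are not reported here.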

Additional observations from a re-analysis of the deposited data

Results flagged for a closer look

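Across all genes 157 were called against mESC in both step 4 groups with opposite signs and also differed between the groups by limma's test, and the 8 with the largest difference are given here because the enriched cells lay below mESC and the unsorted control cells above it. The enriched minus control difference was -4.88 for Mael (adjusted p = 0.000172), -4.69 for Ddx4 (adjusted p = 0.000517) and -4.56 for Gm7167 (adjusted p = 0.000705). Of the meiosis genes it was -4.37 for Hormad1 (adjusted p = 0.000204), -4.31 for Syce1 (adjusted p = 0.000211), -4.1 for Sycp3 (adjusted p = 0.000541) and -4.06 for Sycp1 (adjusted p = 8.05e-05). Calca, which encodes calcitonin and a sensory neuropeptide, was at -4.01 (adjusted p = 0.00125). In the control arrays these genes stood above mESC at 2.22 (Mael), 2.26 (Ddx4), 1.55 (Gm7167), 1.63 (Hormad1), 1.49 (Syce1), 1.06 (Sycp3), 2.94 (Sycp1) and 1.23 (Calca). The source of the RNA was not tested.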

How the results depend on the processing

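Against mESC, median centring without loess gave 3692 genes lower, and treat against a 2-fold change gave 1935 higher and 1502 lower; without 1 enriched array 6746 to 7208 were higher and 6214 to 6535 lower. For enriched minus control cells, scaling between arrays gave 640 higher and 1631 lower, treat gave 2 and 224, and leaving out 1 array gave 1783 to 3442 higher and 2491 to 3398 lower. For step 5 minus step 4 the scanner's ratio gave 502 higher, scaling 113 higher and 43 lower, the replicate block 1330 and 964, the slide as a random block 1337 and 1031, and treat 22 and 0, and leaving out 1 array gave 269 to 662 higher and 136 to 413 lower. Called signs reversed with median centring for Phf10 (0.13), Bmp4 (0.01), Msi1 (0.36), Pclo (0.24), Gli2 (0.15) and Ephb2 (0.18), and with the mean of a gene's probes for Msi1 (0.13) and Pclo (1.24). Of 284 named genes 277 kept direction and call under the replicate block, and calls it changed among the genes described are given with them. The cause of these changes was not tested. Without dye swaps or arrays of mESC against itself, neither dye effects nor the spread of the reference could be measured.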
